A study of Mus musculus with 4 samples.

Results

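The Id genes and the bone morphogenetic protein (BMP) pathway were followed in neural stem/progenitor cells (NSPCs) through 10 genes: Id1, Id2, Id3 and Id4, the ligands Bmp4 and Bmp7, the receptors Bmpr1a and Bmpr1b, and the inhibitory Smads Smad6 and Smad7. Members were taken by gene name on the array and gave 12 probes, with 2 probes each for Bmp4 and Bmpr1b, among 55681 probes and 36499 genes in all. Each of 4 Agilent 2-colour arrays carried RNA of NSPCs treated with 20 µM PJ34, an inhibitor of poly(ADP-ribose) polymerases, in Cy5 and RNA of untreated NSPCs in Cy3. Of these arrays 2 held wild-type cells and 2 held Trp53-/- cells, which lack the tumour suppressor p53. All cells were from Slc:ICR embryos of day 13.5 according to the labels and grew in neurosphere medium with B-27, EGF and basic FGF (20 ng/ml each). The Trp53 allele came from heterozygous mice and is carried in every cell, not in NSPCs alone. RNA had been prepared independently for each of the 2 replicates. A log2 ratio below is the Cy5 over the Cy3 signal of one array, and a level is the log2 intensity of one channel after normalization.

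BMP ligands bind paired type I and type II receptors, and the active receptor phosphorylates Smad1, Smad5 and Smad9, which enter the nucleus with Smad4. Id genes are classic targets of these Smads. The Id proteins lack a DNA-binding region, pair with E proteins such as those of Tcf3, Tcf4 and Tcf12, and so keep basic helix-loop-helix factors from their E-box sites. In the embryonic brain they are known for holding progenitors back from neuronal differentiation, while Smad6 and Smad7 are induced by the pathway and feed back on it.

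The start regions of the Id genes are shown because Id2, Id3 and Id4 were the Id genes whose ratios passed the test below. RefSeq windows (GRCm38.p6) were at hand for 7 of the 10 members. The 250 bases before each start are given 5′ to 3′ on the gene's strand, Id2 from chr12:25096093-25096342 (minus strand), Id3 from chr4:136143572-136143821 (plus strand) and Id4 from chr13:48260866-48261115 (plus strand). Capitals mark GGCGCC, a GC-rich element known to be bound by BMP Smads, which reads the same on both strands.
Id2: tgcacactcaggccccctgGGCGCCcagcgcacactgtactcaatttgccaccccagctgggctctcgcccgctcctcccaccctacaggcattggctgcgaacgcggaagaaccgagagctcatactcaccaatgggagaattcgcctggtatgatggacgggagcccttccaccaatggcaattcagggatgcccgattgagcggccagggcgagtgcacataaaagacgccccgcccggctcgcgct
Id3: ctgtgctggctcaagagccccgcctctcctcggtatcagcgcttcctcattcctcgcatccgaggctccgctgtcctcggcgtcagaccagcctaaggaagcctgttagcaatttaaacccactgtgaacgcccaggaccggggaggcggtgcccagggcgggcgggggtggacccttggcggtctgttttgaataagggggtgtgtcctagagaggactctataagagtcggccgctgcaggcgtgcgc
Id4: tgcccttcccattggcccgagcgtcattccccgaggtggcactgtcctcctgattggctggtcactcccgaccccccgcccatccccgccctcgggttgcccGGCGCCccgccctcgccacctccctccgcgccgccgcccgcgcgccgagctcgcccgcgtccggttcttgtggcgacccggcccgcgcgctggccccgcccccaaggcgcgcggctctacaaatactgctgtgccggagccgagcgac
The element occurred in 1 copy in Id2, beginning 231 bases before the start, and in 1 copy in Id4, beginning 148 bases before it. Bmpr1a also held 1 copy, 198 bases before its start, while the windows of Id3, Bmp4, Smad6 and Bmpr1b, the last with 3 alternative starts, held none. Among 32536 RefSeq windows of the same length, 9.65% held it. The element is made of G and C alone. Its windows were 62.8% (Id2), 75.6% (Id4) and 78.8% (Bmpr1a) G and C, beside a median of 52.4% over all windows. The member windows without it were between 46.8% and 66.8%. No comparison at equal G and C content was made, so no enrichment is read. The Smad box GTCT, searched on both strands, was in 82.9% of windows and the E-box CANNTG in 66.2%. Id3 held 2 copies of GTCT and no CANNTG, Id2 held 1 copy of each, and Id4 held neither.

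Across all arrays, 21506 to 24536 probes were well above background in the untreated channel and 26078 to 27157 in the PJ34 channel, with 0 saturated spots. Replicate arrays correlated at 0.70 in wild-type and 0.64 in Trp53-/- across genes. The untreated Trp53 level was 8.28 and 8.51 on the wild-type arrays against 7.56 and 7.82 on the Trp53-/- arrays. Trp53 was thus lower but not at background in the Trp53-/- cells, and the place of its probe relative to the deleted part is not given in the sources used here. Of 8 progenitor markers (Nes, Sox2, Pax6, Vim, Msi1, Fabp7, Slc1a3, Prom1), 8 were above background in all 4 untreated channels, whereas 4 of 4 choroid plexus markers, 4 of 4 red cell markers and 5 of 6 meningeal markers were above it in none. Markers of other cell types were also detected: 5 of 6 neuronal, 5 of 6 astrocyte, 7 of 7 oligodendrocyte-lineage and 2 of 5 microglial and macrophage markers (Csf1r and Itgam) were above background in all 4 untreated channels, with Aif1, Cx3cr1 and Ptprc above it in none. One array stood apart. On Trp53-/- replicate 2 the log2 ratio of the Y-linked genes Eif2s3y and Ddx3y was 4.22 and 3.12, and that of Xist was -1.39, against -0.20, -0.20 and 0.30 on replicate 1. The astrocyte gene Gfap had a ratio of 1.62 there and between -0.28 and 0.00 on the other 3 arrays. The 2 channels of this array thus differed in Y-linked RNA and may not come from the same embryos, so that an effect of PJ34 and a difference between the cells cannot be told apart in its ratios. Results of members and of genes in the pathway lists that passed the test in Trp53-/- cells or between untreated cells are given with and without this array. Marker genes are given only with it. Differences of the PJ34 response between genotypes are given both ways for the members, and only with this array for other genes. When an array is left out, its genotype has 1 array and the spread comes from the other genotype alone, so such a q assumes that both genotypes vary alike.

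Each gene was represented by its brighter probe, and 9 of the 10 members passed the filter on dim probes. Smad6 was not well above background in either channel of any array, with levels between 5.87 and 6.16, and no ratio is read from it. The same held for the second Bmp4 probe. The probes of the Id genes lie, on the mm9 build of the array design, at chr2:152563083-152563142 (Id1), chr12:25778904-25778963 (Id2), chr4:135700075-135700249 (Id3, a probe whose span is interrupted) and chr13:48358668-48358727 (Id4). No mm9 annotation was used here to assign them to exons.

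**Figure D1:**
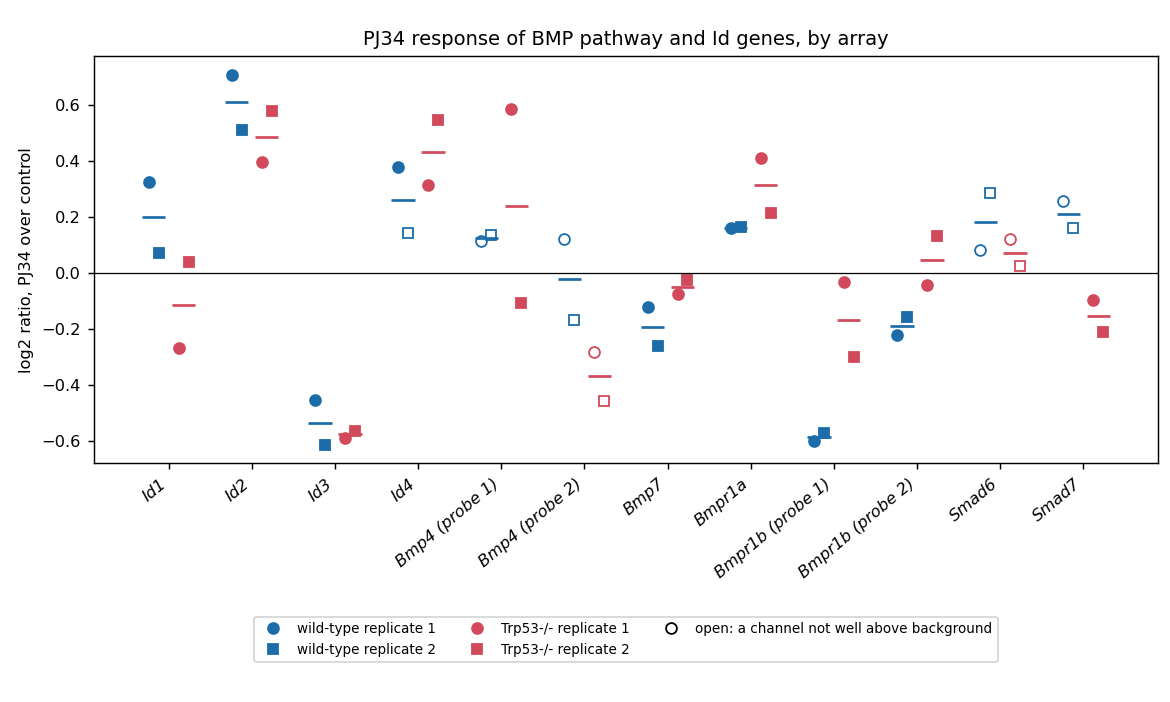
Log2 ratio of PJ34 over control (vertical axis) for the 12 probes of the 10 members (horizontal axis), 1 point per array and a short line at the mean of each genotype; open points had a channel not well above background. Id2 lay between 0.40 and 0.71 and Id3 between -0.61 and -0.46 on the 4 arrays, while the wild-type points of the brighter Bmpr1b probe (probe 1) were at -0.60 and -0.57.

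After loess normalization the ratios of PJ34 over control of the Id genes went in opposite directions. Id2 rose in both genotypes, Id3 fell in both, Id4 passed the test in Trp53-/- cells, and Id1 did not pass it in either. None reached a 2-fold change. The fall of Id3 depended on the dye correction, as given below. PJ34 was in Cy5 on every array, so a dye bias of a probe and an effect of PJ34 cannot be told apart. Under the rule of p and Storey's q below 0.05 with more than 2-fold change, 0 of 9 members were called in wild-type cells, where 0.499% of 20228 genes were, and 0 of 9 in Trp53-/- cells, where 0.361% were. Without the fold limit 3 of 9 passed in wild-type cells, beside 24.8% of all genes, and 4 of 9 in Trp53-/- cells, beside 23.3%. With Benjamini-Hochberg adjustment these counts were 3 and 4 as well. The members' median log2 ratio was 0.16 in wild-type and -0.05 in Trp53-/- cells, beside 0.03 and 0.03 over all genes. Nothing particular to the pathway is read from these counts.

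The log2 ratio of Id2, which in neural tissue is linked to keeping progenitors undifferentiated, was 0.71 and 0.51 on the wild-type arrays and 0.40 and 0.58 on the Trp53-/- arrays. All 4 values were above 0 and the genotypes overlapped. Its level went from 10.36 to 11.07 and from 10.58 to 11.09 in wild-type cells, and from 10.77 to 11.16 and from 10.88 to 11.46 in Trp53-/- cells. The mean was 0.61 ± 0.14 (SD, n = 2) in wild-type cells, a 1.53-fold rise (limma, q = 0.00117). In Trp53-/- cells it was 0.49 ± 0.13 (SD, n = 2), a 1.40-fold rise (q = 0.0045). Without Trp53-/- replicate 2 the Trp53-/- value was 0.40 and no longer passed (q = 0.0956), and with the scanner software's values it was 0.51 and did not pass.

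For Id3, an Id gene that responds early to BMP, the arrays gave -0.46 and -0.61 in wild-type and -0.59 and -0.56 in Trp53-/- cells. Every array was below 0, and the Trp53-/- pair lay inside the wild-type range. The level fell from 12.32 to 11.86 and from 12.69 to 12.07 in wild-type cells, and from 12.78 to 12.19 and from 12.79 to 12.23 in Trp53-/- cells. Id3 thus fell by 0.53 ± 0.11 (SD, n = 2) on the log2 scale in wild-type cells (q = 0.00165), and by 0.58 ± 0.02 (SD, n = 2) in Trp53-/- cells (q = 0.00175), where q was at most 0.0213 with 1 Trp53-/- array left out. This direction depended on the dye correction: with each array centred on its median in place of loess, the ratio was 0.14 in wild-type and 0.36 in Trp53-/- cells, when the median of all genes moved to 0.46 and 0.63. Relative to that median Id3 was at -0.32 and -0.26, and with loess it was at -0.56 and -0.61.

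Id4, expressed in dividing progenitors, gave 0.38 and 0.14 in wild-type cells, where 1 of the 2 untreated channels was not well above background, and 0.32 and 0.55 in Trp53-/- cells. The 4 values were above 0 and the genotypes overlapped. The Trp53-/- mean was 0.43 ± 0.16 (SD, n = 2; q = 0.00907), and it was 0.32 without replicate 2 (q = 0.175). The wild-type mean was 0.26 ± 0.17 (SD, n = 2; q = 0.0534), which lay at the threshold and passed it under 10 of 16 alternatives (q from 0.0163 to 0.0495). Id1, the Id gene most often used as a readout of BMP signalling, gave 0.33 and 0.07 in wild-type against -0.27 and 0.04 in Trp53-/- cells. Its 2 wild-type arrays were above its 2 Trp53-/- arrays, but the means of 0.20 (q = 0.119) and -0.12 (q = 0.243) did not pass.

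**Figure D2:**
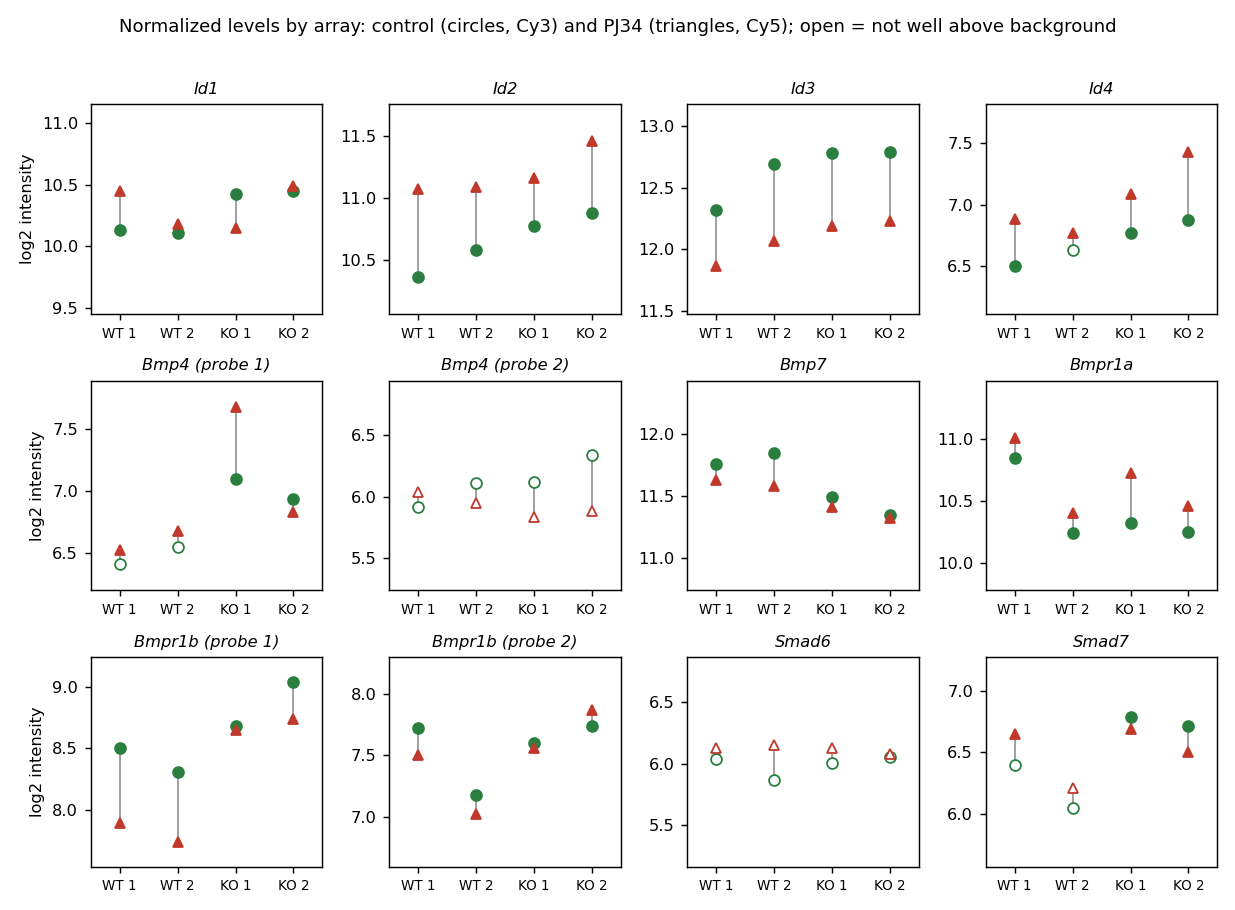
Normalized log2 intensity (vertical axis, the same span of 1.7 in each panel) of each member probe on the wild-type (WT) and Trp53-/- (KO) arrays, with the untreated channel as circles and the PJ34 channel as triangles; open symbols were not well above background. The Id2 triangles were above the circles on 4 of 4 arrays and those of Id3 below them on 4 of 4.

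The ligands did not pass the test. Bmp7, a ligand of the forebrain and meninges, gave -0.12 and -0.26 in wild-type and -0.07 and -0.03 in Trp53-/- cells, with means of -0.19 (q = 0.0887) and -0.05 (q = 0.363). Bmp4, which drives glial over neuronal differentiation in NSPC cultures, gave 0.12 and 0.14 in wild-type cells, where the untreated channel was not well above background on either array. Its PJ34 mean there was 1.09-fold above the untreated bound defined below. In Trp53-/- cells Bmp4 gave 0.58 and -0.11, so its arrays pointed in opposite directions, with a mean of 0.24 ± 0.49 (SD, n = 2; q = 0.134). No direction is read from it, although the single array left without replicate 2 passed (q = 0.0203), since the other alone gave q = 0.404. For channels below background, a bound replaces the dim level. It is the higher of the level's own value and the lowest level of any probe well above background on that array. A fold over this bound is not a minimum, because untreated levels not well above background could be higher than it. Pecam1 reached 6.73, and 1 of the 2 wild-type levels of Bmp8a, 7.53 and 6.80, was not well above background.

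The type I receptors differed from each other. Bmpr1a, the broadly expressed type I receptor of the ventricular zone, gave 0.16 and 0.16 in wild-type and 0.41 and 0.21 in Trp53-/- cells. Its Trp53-/- mean of 0.31 ± 0.14 (SD, n = 2) passed the test (q = 0.0225) and did not without replicate 1 (0.21, q = 0.225), without replicate 2 (0.41, q = 0.0758) or with the scanner software's values (0.29). The wild-type mean was 0.16 (q = 0.135). Bmpr1b, the type I receptor that appears later in neural differentiation, gave -0.60 and -0.57 in wild-type and -0.03 and -0.30 in Trp53-/- cells at its brighter probe. It fell by 0.59 ± 0.02 (SD, n = 2) in wild-type cells (q = 0.00144), and was -0.17 ± 0.19 (SD, n = 2; q = 0.135) in Trp53-/- cells. Its second probe gave -0.22 and -0.16, then -0.04 and 0.13, and did not pass in wild-type cells (-0.19, q = 0.102, adjusted over all kept probes). The fall at the brighter probe also depended on the dye correction, being -0.14 with median centring, where it did not pass, and the mean of both probes was -0.39. The 2 probes, at chr3:141503374-141503433 and chr3:141500694-141500753 (mm9), therefore disagreed on whether Bmpr1b changed.

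Smad7, the inhibitory Smad that blocks both BMP and TGF-beta receptors, gave 0.26 and 0.16 in wild-type and -0.10 and -0.21 in Trp53-/- cells. The genotypes did not overlap, but Smad7 was close to background, as neither untreated wild-type channel was well above it and only 1 of the 2 PJ34 channels was. The means of 0.21 (q = 0.0716) and -0.15 (q = 0.137) did not pass.

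On all 4 arrays Id2, Id4 and Bmpr1a were above 0, which makes 3 of 9 members beside 24.4% of genes, and Id3, Bmp7 and Bmpr1b were below 0, 3 of 9 beside 17.3%. PJ34 was in Cy5 on every array, so a dye bias of a probe and an effect of PJ34 cannot be told apart in these ratios; such a bias cancels in the comparisons between genotypes. Oligodendrocyte genes moved in the same contrast: their summed level went from 13.27 to 12.49 and from 13.37 to 12.76 in Trp53-/- cells, and from 11.65 to 11.45 and from 12.11 to 11.88 in wild-type cells, and their part in the members' ratios was not tested. In bulk RNA, fewer cells of a type and less RNA per cell cannot be told apart.

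Whether p53 was needed for these responses was asked by the difference between the genotypes, wild-type minus Trp53-/-. No member passed (limma, 0 of 9, beside 1.75% of all genes; 2 of 9 had an unadjusted p below 0.05 and Benjamini-Hochberg also gave 0), and 0 were called with the 2-fold limit, beside 0.475%. The difference was 0.12 for Id2 (95% interval -0.18 to 0.43, q = 0.546) and 0.04 for Id3 (-0.24 to 0.33, q = 0.676). A p above the threshold does not show that the genotypes acted alike, and these intervals hold differences of up to 0.43 and 0.33 on the log2 scale. For Id4 the difference was -0.17 (-0.49 to 0.15) and for Id1 0.32 (-0.02 to 0.65).

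The largest differences among the 9 members were those of Bmpr1b and Smad7. Bmpr1b differed by -0.42 (-0.72 to -0.11, q = 0.137), from -0.59 in wild-type to -0.17 in Trp53-/- cells, and its second probe by -0.23 (-0.52 to 0.06). Smad7 differed by 0.36 (0.08 to 0.65, q = 0.161), with the limit of signal given above, and its size changed with the background correction, to 0.60 with an offset of 16 and 1.49 with the scanner software's values. Bmp4 (-0.11), Bmp7 (-0.14) and Bmpr1a (-0.15) had intervals that included 0. Without Trp53-/- replicate 2 the differences were 0.47 for Id1, 0.21 for Id2, 0.06 for Id3 and -0.05 for Id4. They were then -0.46 for Bmp4, -0.12 for Bmp7, -0.25 for Bmpr1a, -0.55 for Bmpr1b and 0.31 for Smad7.

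**Figure D3:**
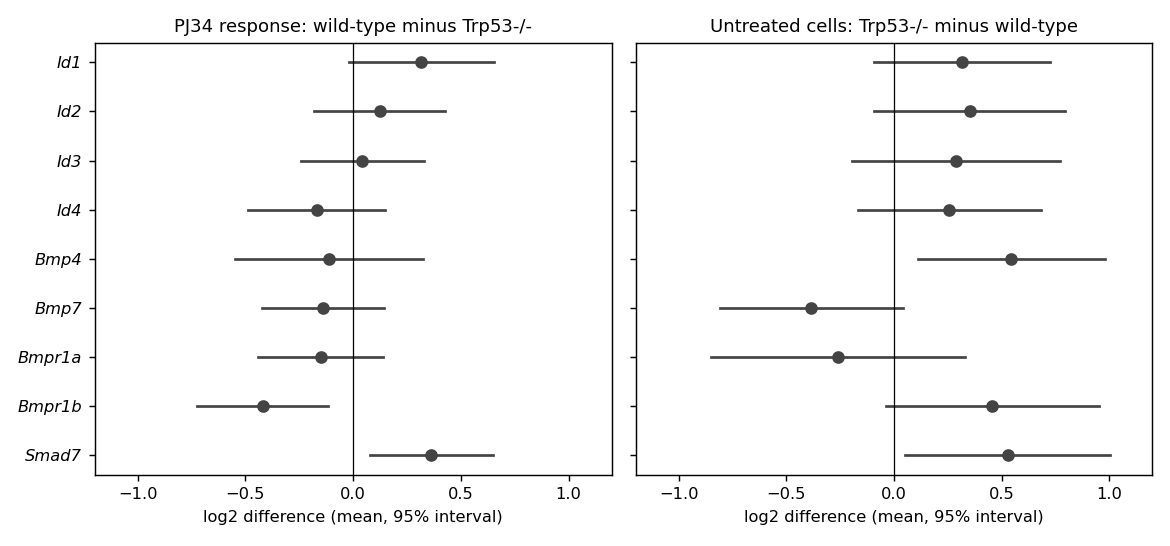
Mean log2 difference with its 95% interval (horizontal axes) for the 9 members tested (vertical axis): left, PJ34 response in wild-type minus Trp53-/-; right, untreated level in Trp53-/- minus wild-type. Left, only the intervals of Bmpr1b and Smad7 exclude 0 among these members, and right, only those of Bmp4 and Smad7, none of them passing the adjusted threshold.

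Untreated levels were compared in the Cy3 channel, Trp53-/- minus wild-type. No member passed the test: 0 of 9 did, beside 9.31% of 17221 genes (limma; 2 of 9 had an unadjusted p below 0.05, and Benjamini-Hochberg gave 0), and 0 were called with the 2-fold limit, beside 4.69%. Bmp4, Smad7 and Id4 entered this comparison through the Trp53-/- arrays alone, where they were brighter, so their direction is no result. Of the 6 members well above background on all 4 arrays, 4 had both Trp53-/- arrays above both wild-type arrays, beside 28.3% of such genes, and 1 (Bmp7) had both below, beside 26.9%.

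The 4 Id genes had differences between 0.26 and 0.35 with all arrays. Id1 was at 10.13 and 10.11 in wild-type and 10.42 and 10.45 in Trp53-/- cells, a difference of 0.31 (-0.09 to 0.72, q = 0.17). Id2 was at 10.36 and 10.58 against 10.77 and 10.88 (0.35, q = 0.162), Id3 at 12.32 and 12.69 against 12.78 and 12.79 (0.29, q = 0.235), and Id4 at 6.50 and 6.63 against 6.77 and 6.88 (0.26, q = 0.231). In Id1, Id2 and Id3 the Trp53-/- pair was the higher one without overlap, and each difference stayed above 0 without any one array. That of Id3 was 0.10 without wild-type replicate 1 and 0.47 without wild-type replicate 2. Id4 entered through the Trp53-/- arrays alone, so its direction is no result. The difference of Id2 lay between 0.24 and 0.46 with any one array left out. How many members passed with an array left out is not read as a result about them. The share of all genes taken as unchanged for q then moved too, from 0.56 to 0.33 without wild-type replicate 2.

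Bmp4 was at 6.41 and 6.54 in wild-type cells, not well above background on either array, and at 7.10 and 6.94 in Trp53-/- cells. That was 1.45-fold above the wild-type bound (measured means 6.47 and 7.02), and the test did not pass (limma, q = 0.0754). Smad7, likewise not well above background in untreated wild-type cells, was at 6.40 and 6.05 against 6.79 and 6.71. It was 1.21-fold above its bound (measured means 6.22 and 6.75, q = 0.0936). Both genes entered through the Trp53-/- arrays alone, so their direction is no result. The measured differences of these dim genes, 0.54 for Bmp4 and 0.53 for Smad7, became 0.80 and 0.88 with an offset of 16 and 1.34 and 1.83 with the scanner software's values. Bmpr1b was at 8.50 and 8.31 against 8.68 and 9.04 (0.46, q = 0.128). Bmp7 went the other way, from 11.76 and 11.85 to 11.49 and 11.35 (-0.38, q = 0.132). Bmpr1a was at 10.85 and 10.24 against 10.32 and 10.25, so that 1 wild-type array set its difference of -0.26 (q = 0.31), which was 0.05 without wild-type replicate 1.

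The wild-type arrays were all scanned in an earlier period than the Trp53-/- arrays, so scan period and genotype cannot be told apart. Other cells' genes also differed between the untreated channels. The summed level of 7 oligodendrocyte-lineage genes was 11.65 and 12.11 in wild-type against 13.27 and 13.37 in Trp53-/- cells, and that of 6 astrocyte genes 14.90 and 15.03 against 15.25 and 15.15. The 4 endothelial genes summed to 13.06 and 12.99 against 11.82 and 11.66, but Kdr alone was above background, with Pecam1, Cdh5 and Tek above it in no untreated channel. The 6 neuronal genes summed to 12.75 and 12.09 against 12.18 and 12.35, a sum set mainly by Map2 (means 12.12 against 11.67). Rbfox3 was higher in Trp53-/- cells by 1.24 (limma, q = 0.0185) and Syt1 by 0.93 (q = 0.0257). Dcx was higher by 0.64 and Tubb3 by 0.62 without passing, and Stmn2, at background, by 0.46. The 5 microglial and macrophage genes summed to 12.57 and 12.81 against 12.12 and 11.90. The summed level of the 8 progenitor genes was 17.39 and 17.03 against 17.11 and 17.13. Eif2s3y averaged 8.72 in wild-type and 6.12 in Trp53-/- untreated cells (q = 0.0091). The part of these in the members' levels was not tested.

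The rest of the pathway was read from 7 lists of 69 genes, and within the lists values are given for genes called in any comparison, then for those with the largest ratios. Genes outside that choice were named after their values were seen, because so few passed. The background for single directions at q below 0.05 was 13.6% of genes higher and 11.3% lower in wild-type cells, 12.8% and 10.5% in Trp53-/- cells, and 4.64% and 4.67% between untreated cells. Of 11 other BMP ligands 3 were above the filter (Bmp2, Bmp8a, Gdf5) and 0 passed in either genotype (limma; q between 0.0884 and 0.497), with mean log2 ratios between -0.09 and 0.23. Of 8 other receptors and co-receptors 6 were tested. The co-receptor gene Rgma was the one that passed, at 0.33 in wild-type cells (0.20 and 0.47, q = 0.0207) and -0.16 in Trp53-/- cells (-0.10 and -0.21, q = 0.151), with a difference that did not pass (0.49, q = 0.0949). The activin receptors Acvr2a (0.10 and 0.12) and Acvr2b (-0.04 and 0.19) did not pass in wild-type or Trp53-/- cells. Of 4 signal-carrying Smads 3 were tested. Smad4, the common partner, was at 0.32 in Trp53-/- cells (0.45 and 0.20, q = 0.0249) and 0.11 in wild-type cells (q = 0.242), and Smad1 and Smad5 passed in neither.

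Of 19 BMP antagonists and inhibitors, 14 were tested; 5 rose and 1 fell in wild-type cells, and 2 rose and 1 fell in Trp53-/- cells, with list medians of 0.04 and 0.05. Sostdc1, a secreted BMP antagonist, gave 0.70 and 0.25 in wild-type and 0.98 and 1.00 in Trp53-/- cells, with means of 0.48 (q = 0.0082) and 0.99 (q = 0.000374), 1 of the 2 untreated Trp53-/- channels being not well above background. Follistatin (Fst), which binds activins and BMPs, gave 1.25 and 0.57 in wild-type (0.91, q = 0.00145) and 0.63 and 0.22 in Trp53-/- cells (0.43, q = 0.0412). Tob1, an antiproliferative protein that restrains BMP Smads, gave 1.09 and 0.42 in wild-type (0.76, q = 0.00257) and -0.17 and 0.04 in Trp53-/- cells, and the genotypes differed by 0.82 (q = 0.0609). Bmper (0.37) and Skil (0.24) also rose and Chrdl1 fell (-0.33) in wild-type cells, and Fstl1 fell (-0.36) in Trp53-/- cells. With median centring Chrdl1 was at 0.01 and Fstl1 at 0.44. Bmper rested on wild-type replicate 1, without which it was 0.07 (q = 0.533). In untreated cells Nbl1, a BMP antagonist, was higher in Trp53-/- cells (a difference of 1.10, 2.14-fold, q = 0.0312), and Bmper was lower (8.71 and 8.70 against 7.16 and 7.22, a difference of -1.52, q = 0.012). Noggin (Nog) did not pass in any comparison, with ratios of -0.01 and 0.07 and an untreated difference of -1.08 (q = 0.0854).

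Of 5 other BMP target genes 3 were tested, 0 passed in wild-type cells and 2 rose in Trp53-/- cells. Msx2, a homeobox gene induced by BMP, gave 0.01 and 0.06 in wild-type and 0.41 and 0.44 in Trp53-/- cells (0.43, q = 0.00523), and the difference did not pass (q = 0.126). Untreated Msx2 was at 7.64 and 7.58 in wild-type cells and not well above background in Trp53-/- cells. Its wild-type mean was 2.14-fold above the Trp53-/- bound (measured means 7.61 and 6.52, q = 0.0229). Msx2 entered the comparison through the wild-type arrays alone, so its direction was fixed by the filter and is no result. Hey1, a Notch and BMP target, rose to a ratio of 0.33 in Trp53-/- cells (0.30 and 0.35, q = 0.0252) and was at 0.05 in wild-type cells. Msx1 was at -0.05 and 0.04.

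The helix-loop-helix partners of Id proteins moved in both directions. Of 9 genes 6 were tested; 2 rose and 2 fell in wild-type cells, and 1 rose and 1 fell in Trp53-/- cells. Olig2, which specifies oligodendrocyte progenitors, fell in both genotypes (-0.31, q = 0.0249; -0.53, q = 0.00293). With median centring Olig2 was at 0.37 and 0.43, so that its direction turned as that of Id3 did, and so did that of Tcf3, at 0.20 in wild-type cells. Among the E proteins Tcf12 rose in both genotypes (0.26, q = 0.0419; 0.38, q = 0.0106), Tcf3 fell in wild-type cells (-0.41, q = 0.00543), and Tcf4 was at -0.19 and -0.11. Neurod1 rose in wild-type cells (0.38, q = 0.011) but its untreated channel was at background on all 4 arrays. It was kept through the PJ34 channel of the wild-type arrays alone, so the filter favoured a rise.

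The TGF-beta and activin branch shares Smad4 with the BMP branch. Of 13 genes 10 were tested; 2 rose and 1 fell in wild-type cells, and 1 rose and 3 fell in Trp53-/- cells. The type II receptor gene Tgfbr2 rose on 4 of 4 arrays, by 0.49 and 0.57 in wild-type (0.53, q = 0.00192) and 0.60 and 0.79 in Trp53-/- cells (0.70, q = 0.000787). The ligand genes Tgfb3 (-0.33 and -0.83) fell in both genotypes and Tgfb2 in Trp53-/- cells (-0.32, q = 0.0183; 0.23 in wild-type, q = 0.0572), while Inhbb rose in wild-type cells (0.32, q = 0.0258) and Smad3 fell in Trp53-/- cells (-0.32, q = 0.021). With median centring Tgfb3 was at 0.03 in wild-type and -0.25 in Trp53-/- cells (q = 0.0623), Tgfb2 at 0.51 and Smad3 at 0.54 in Trp53-/- cells. Of 9 genes compared between untreated cells, 3 were higher in Trp53-/- cells and 2 of them by more than 2-fold: Tgfb2 (8.59 and 8.68 against 10.60 and 10.85, 4.27-fold, q = 0.0091) and Inhbb (9.28 and 9.74 against 10.67 and 10.95, 2.46-fold, q = 0.0233), followed by Tgfb3 (0.89, q = 0.0377). Without any one array these differences kept their direction, and the highest q was 0.0589 for Tgfb2, 0.366 for Inhbb and 0.533 for Tgfb3.

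Single arrays decided many of the calls in the 7 lists. Of the 14 list genes that passed in wild-type cells, 6 passed without wild-type replicate 1 and 8 without wild-type replicate 2, and the 4 that passed whichever of these was left out were Fst, Tob1, Tcf3 and Tgfbr2. Of the 12 in Trp53-/- cells, 6 passed without Trp53-/- replicate 1 and 4 without Trp53-/- replicate 2, and Sostdc1, Olig2, Tgfb3 and Tgfbr2 passed whichever was left out. Without Trp53-/- replicate 2, Fst (0.63, q = 0.0501), Tcf12 (0.45, q = 0.0581), Smad4 (0.45, q = 0.0603), Msx2 (0.41, q = 0.0754) and Hey1 (0.30, q = 0.201) did not pass. Nor did Smad3 (-0.41, q = 0.0798), Tgfb2 (-0.40, q = 0.0838) and Fstl1 (-0.27, q = 0.22). Of the 6 that differed between untreated cells, 6 passed whichever wild-type array was left out, 1 (Tgfb2) without Trp53-/- replicate 1 and 0 without Trp53-/- replicate 2, where the difference was 1.13 for Nbl1 (q = 0.401), -1.55 for Bmper (q = 0.139) and -0.98 for Msx2 (q = 0.456). With median centring these 6 differences kept their direction and did not pass (q from 0.053 to 0.147). Msx2 is 1 of these 6. Since the filter fixed its direction, neither its direction nor its passing counts as a result.

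**Figure D4:**
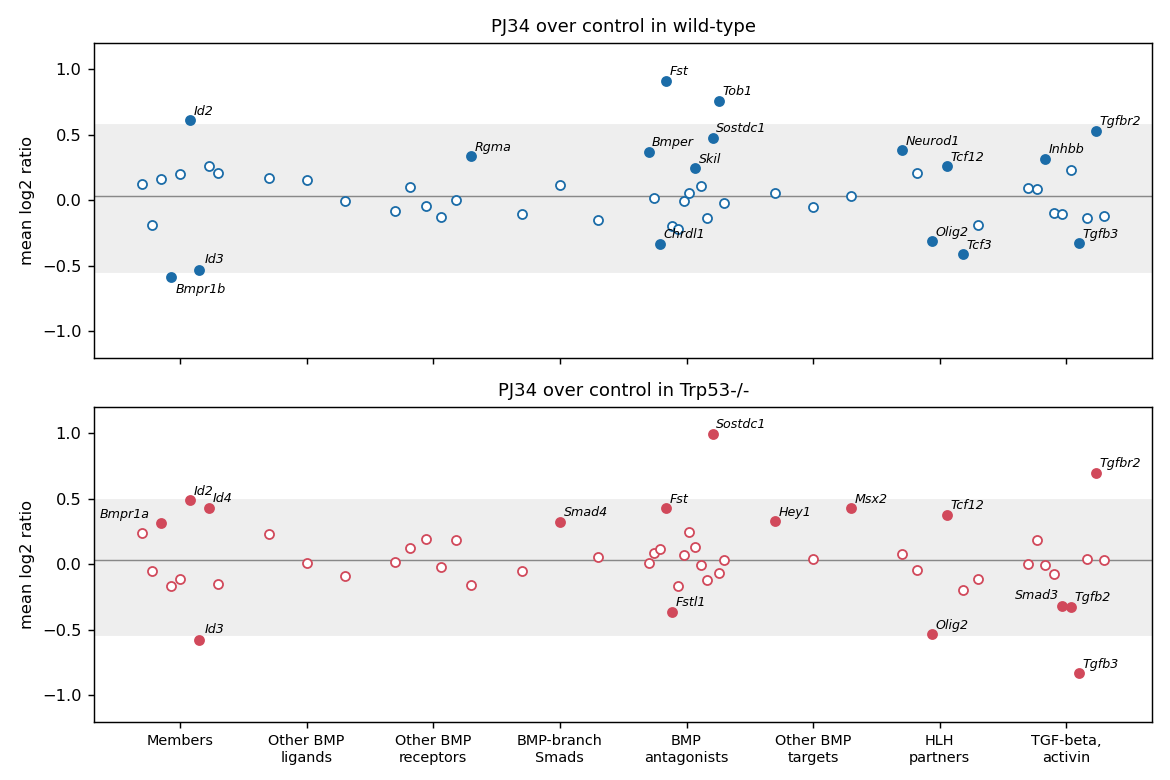
Mean log2 ratio of PJ34 over control (vertical axis) for the tested genes of the members and of 7 pathway lists (horizontal axis), wild-type above and Trp53-/- below; filled points passed q below 0.05, the line is the median of all genes and the grey band holds the middle 95% of all genes. The members Id2 (0.61) and Bmpr1b (-0.59) and the list genes Fst (0.91) and Tob1 (0.76) lay outside the band in wild-type cells, and Id3 (-0.58), Sostdc1 (0.99), Tgfbr2 (0.70) and Tgfb3 (-0.83) in Trp53-/- cells.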

How the data were processed

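The intensities were deposited by the authors as scanner output of 4 Agilent SurePrint G3 Mouse GE arrays, extracted per the file headers with Agilent Feature Extraction 10.7.3.1; the same deposited files give the software's log10 ratio and its flags. Mean signals were background-corrected (normexp, offset 50), loess-normalized within arrays and averaged per probe after outlier spots were left out (limma 3.58.1, R 4.3.3). Deposited intensities were turned into log2 ratios, and into log2 Cy3 levels after Aquantile scaling. Probes with a channel well above background on both arrays of a genotype were kept (27037 of 55681), and 26300 probes were named through RefSeq. limma was fitted over all 4 arrays with a mean per genotype (2 residual degrees of freedom), with Storey's q (lambda 0.05 to 0.95) over all genes. The precision is limited by the number of arrays. Scripts were tested on simulated data.

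Genes named beyond the members were those called in any comparison and then those with the largest mean ratios, up to 3 in a list; others are marked as chosen after their values were seen. Members and lists were chosen with earlier results of these data known, and 1 gene of a list is not reported here. Alternatives were other background corrections, median centring, the software's values, other filters, fits, adjustments and probe rules, a replicate block and leaving out each array. The 4 numbered columns of a normalized table could not be tied to arrays and were not used.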

Additional observations from a re-analysis of the deposited data

How the results depend on the processing

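Counts of members passing p and q moved by over 1.5 times as follows, under alternatives that kept all 4 arrays. In wild-type cells 1 of 9 was called by more than 2-fold with median centring and 1 with the scanner software's values, and 3 passed with no limit on the fold change; of the count of 3 without a fold limit, an offset of 16, median centring and the software's values each gave 5. The smaller move from 3 to 4 in several others was Id4. In Trp53-/- cells 2 were called by more than 2-fold with median centring and 4 passed without the fold limit. The count of 4 without a fold limit became 7 with median centring and 2 with the software's values. Calls over all genes by more than 2-fold moved as well in Trp53-/- cells, from 18 higher and 55 lower. They became 3407 and 4 with median centring, and 377 and 150 with the software's values. In untreated cells 1 was called with the software's values, and 1 passed without a fold limit with an offset of 16, with the software's values and with a variance trend. The share of all genes passing without the fold limit is given above for the main settings only. Nothing particular to the members is read from these counts.

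Median centring moved the median of all genes to 0.46 in wild-type and 0.63 in Trp53-/- cells, and all but 1 of the reversals under another scaling came from it. In wild-type cells it gave 0.14 for Id3, 0.46 for Bmp7, 0.012 for Chrdl1, 0.20 for Tcf3, 0.37 for Olig2 and 0.028 for Tgfb3. In Trp53-/- cells it gave 0.71 for Id1, 0.36 for Id3, 0.83 for Bmp7, 0.52 for Bmpr1b, 0.44 for Fstl1, 0.43 for Olig2, 0.51 for Tgfb2 and 0.54 for Smad3. The difference between genotypes became -0.11 for Id2 and -0.23 for Id3, and with the software's values that of Bmp4 became 0.25. Split calls over all genes were 58 higher and 43 lower in wild-type cells against 1180 and 2 with median centring, and 18 and 55 in Trp53-/- cells against 3407 and 4; in untreated cells 393 and 414 became 0 and 0. Leaving out 1 array reversed Id1 (-0.27 to 0.037) and Bmp4 (-0.11 to 0.58) in Trp53-/- cells, the differences of Id3 (-0.037 to 0.12) and Bmp4 (-0.46 to 0.23), and the untreated difference of Bmpr1a (-0.57 to 0.048); the cause of these changes was not tested. Of 573 member values under the alternatives, 524 kept their direction and side of the threshold, 7 lost the threshold, 28 gained it and 14 reversed.

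With the replicate number as a block the member counts were 3 in wild-type and 4 in Trp53-/- cells, 0 for the difference and 0 in untreated cells, as without it. The labels do not say that the numbers pair cultures, and deviations of same-numbered arrays correlated at -0.18. With the numbers crossed in a replicate block, chosen after seeing the data, the counts were 4, 4, 0 and 0. Depth is set by signal over background: Smad6 could not be measured, and Bmp4, Smad7 and Id4 were near the limit. With 2 arrays per genotype, no dye swap and scan period tied to genotype, small differences could not be resolved.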
